A study of Mus musculus with 8 samples.

Results

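The receptors for glutamate and GABA carry most of the fast signalling of the cortex, and their genes are described here by the open chromatin found along them in mice with and without chronic cerebral hypoperfusion. The genes were taken by name alone, as the protein-coding genes of GENCODE whose symbol starts with Gria, Grin, Grik, Grid or Grm and a digit, or with Gabr or Gabbr. This gave 48 of 21938 protein-coding genes, of which 27 had glutamate receptor names and 21 had GABA receptor names. No measured value entered the naming rule, but the family was chosen with earlier results of these data known. ATAC-seq, in which the Tn5 transposase cuts and tags the DNA it can reach in nuclei, was performed on cerebral cortex from 4 mice with a sham operation and 4 mice with bilateral carotid artery stenosis (BCAS), with 1 library per mouse. All were male C57BL/6 mice that were operated at 11 weeks and sampled at 14 weeks of age. In BCAS mice a microcoil of 0.16 mm was placed around the right and one of 0.18 mm around the left common carotid artery, which narrows both arteries and the right one more. The labels name the right cortex, whereas the quality table of the study describes cortex of the whole brain, so that the side of the tissue is uncertain. The tissue was used without sorting of cells, so that every value is a mean over neurons, glia and vessel cells.

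Glutamate opens 3 families of ion channels, AMPA receptors (Gria genes), NMDA receptors (Grin) and kainate receptors (Grik), each a tetramer of related subunits. The delta receptors (Grid) are built alike but act mainly as synaptic organizers, and the metabotropic receptors (Grm) signal through G proteins. GABA opens the pentameric chloride channels of the GABA-A class (Gabra, Gabrb, Gabrg and others) and acts on the G protein-coupled GABA-B receptor, a dimer of the Gabbr1 and Gabbr2 products. Many of these genes are among the long genes of neurons, with open sites spread over large introns. Grid2ip meets the naming rule but encodes delphilin, a scaffold protein of cerebellar Purkinje cells, and it is kept apart from the receptor subunits below.

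In the BCAS cortex, peaks covered less of the receptor loci than in the sham cortex, with small negative differences at many long genes. No promoter of the family was called lower, where 1 of all 14223 tested promoters was, so that this count tells little. Covered length fell at 3 of 44 tested receptor loci, Grik2 and Gabrb1 among them, where 0.376% of all tested loci fell. It rose at that of the scaffold gene Grid2ip, where 3.16% of all tested loci rose. The other tested loci did not pass, and no receptor subunit rose. None of these calls held with no scaling, with median-ratio scaling or with a covariate for the GC content of the reads. Each gene was measured from 3 kb before to 3 kb after its body, and the covered length of this locus is the DNA under the called peaks of a library, scaled to the total length that the library's peaks covered. Each list held 107482 to 145102 peaks in sham and 119660 to 160848 in BCAS libraries, and the read depth behind a single peak cannot be read from them.

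Taken as a whole, the receptor loci spanned 12.7 Mb with overlaps counted once. Peaks covered 2.47%, 2.48%, 2.56% and 2.35% of this DNA in sham 1 to 4 after scaling. In BCAS 1 to 4 they covered 2.36%, 2.202%, 2.06% and 2.199%. BCAS 1 lay just above sham 4, the lowest sham library, and the other 3 BCAS libraries lay below every sham library. The group means were 2.47% ± 0.0901 in sham and 2.20% ± 0.121 in BCAS (SD, n = 4), a difference of -0.26 percentage points. Before scaling the difference was -0.12 points, with 2.40% ± 0.451 and 2.28% ± 0.455, which is smaller than the spread within either group. Fewer cells that carry these open sites and less open DNA per cell cannot be told apart in such samples. Read GC content also differed, being higher in sham 1 to 3 and BCAS 1 and lower in sham 4 and BCAS 2 to 4. Its part in the covered share was not tested.

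Of the 48 loci, 44 had a mean covered length of at least 200 bp and were tested with limma among 17035 loci, with Benjamini-Hochberg adjustment over all of them. Covered length rose at 1 locus, that of the scaffold Grid2ip and of no receptor subunit, where 3.16% of all tested loci rose, and fell at 3 (Grik2 and Gabrb1 among them), where 0.376% of all tested loci fell. The log2 fold change, computed on the scaled length plus 200 bp, was negative at 35 of the 44 loci and had a median of -0.16, against 49.6% and a median of 0.00143 over all tested loci. At an unadjusted p under 0.05 the counts were 2 higher and 10 lower of 44, against 10.6% and 4.39% of all tested loci. These shares are over loci of all lengths, and loci of like length are compared below. All 4 BCAS libraries lay below all 4 sham libraries at 7 receptor loci (among them Gabra3, Gabrb1, Gria1, Grik2, Grik4 and Grm7), a pattern found at 2.47% of all tested loci, and above them at 0 of the 44, against 6.03% of all tested loci. The calls were lost under several settings. The median of -0.16 moved to -0.075 with no scaling and to -0.10 with a covariate for the read GC class, and was -0.18 with median-ratio scaling. Without BCAS 3 no receptor locus was called in either direction, without sham 3 none fell, and with no scaling, median-ratio scaling or a covariate for the read GC class none rose or fell. With median-ratio scaling the log2 fold changes were -0.39 at Grik2, -0.28 at Gabrb1 and 1.05 at Grid2ip, and with no scaling they were -0.29, -0.17 and 1.12. Over all loci 538 rose and 64 fell, and with no scaling 222 and 1.

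**Figure D1:**
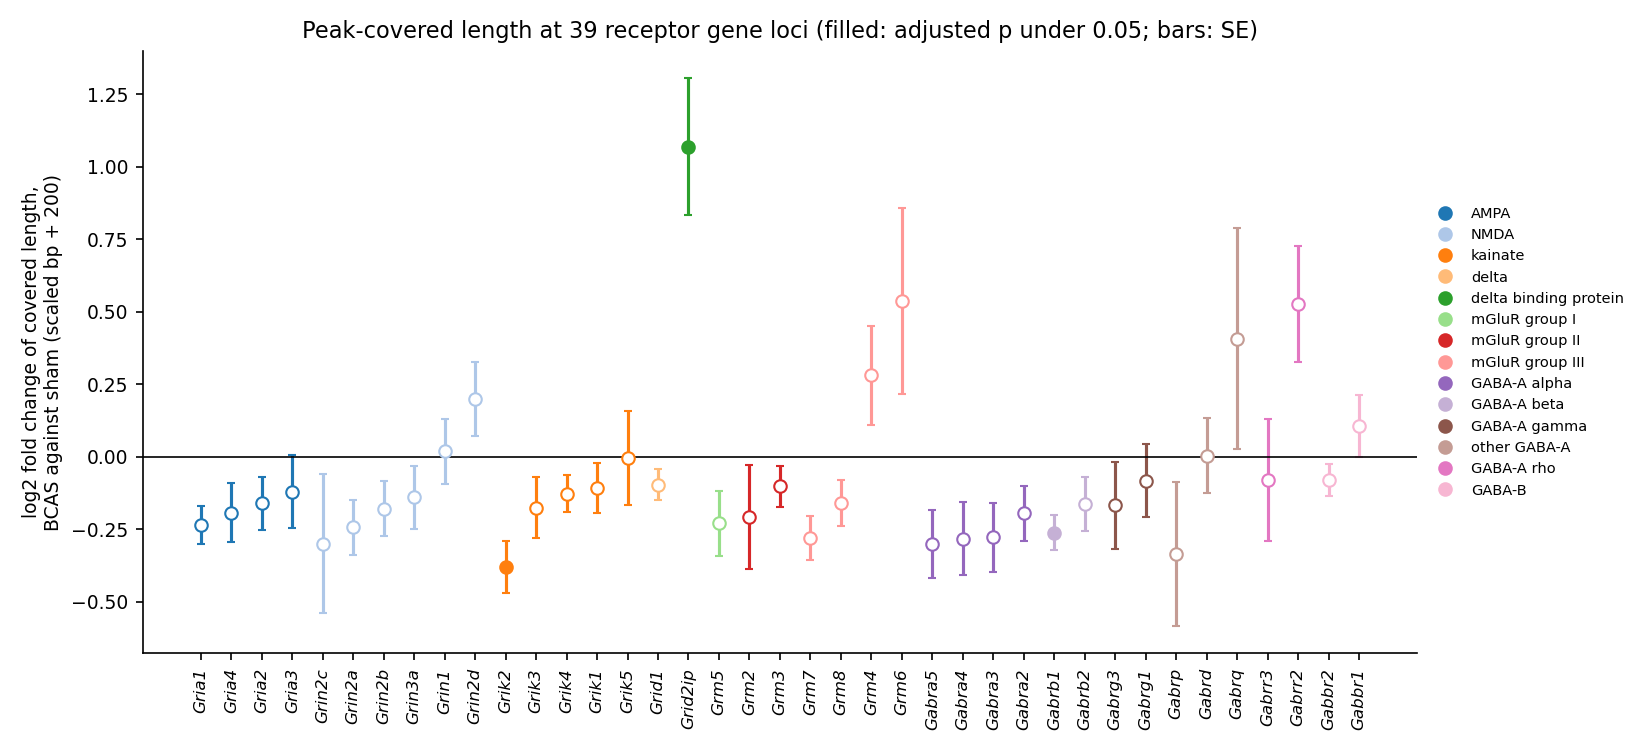
log2 fold change of covered length (BCAS against sham, scaled bp plus 200; vertical axis) at 39 of the 44 tested receptor loci, grouped and colored by receptor class, with bars for the SE. Filled points passed an adjusted p of 0.05: Grid2ip lies at 1.07, and Grik2 and Gabrb1 lie at -0.38 and -0.26.

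The receptor loci were long, and long loci in general had lower values. Their length had a median of 135.8 kb, against 23.4 kb over all protein-coding genes. All 14 receptor loci of at least 400 kb had a negative log2 fold change, with a median of -0.18. Over all 361 tested loci of that length 82.5% were negative, with a median of -0.14. Of those 361, 29 fell and 7 rose. The 3 receptor loci called lower were all of this length. Of the 30 tested shorter ones 0 were called lower, but only 35 of all 16674 tested loci under 400 kb were, so that this count tells little. At an unadjusted limma p under 0.05, 42.9% of the 14 receptor loci and 40.7% of the 361 were lower. Among loci of at least 100 kb the median was -0.17 for the 27 receptor loci, 26 of them negative. It was -0.03 for all 2633 tested, 57.3% of them negative. The 17 tested receptor loci under 100 kb were split evenly (8 positive, 9 negative), with a median of -0.004. The part that length plays in the receptor result was not tested.

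**Figure D2:**
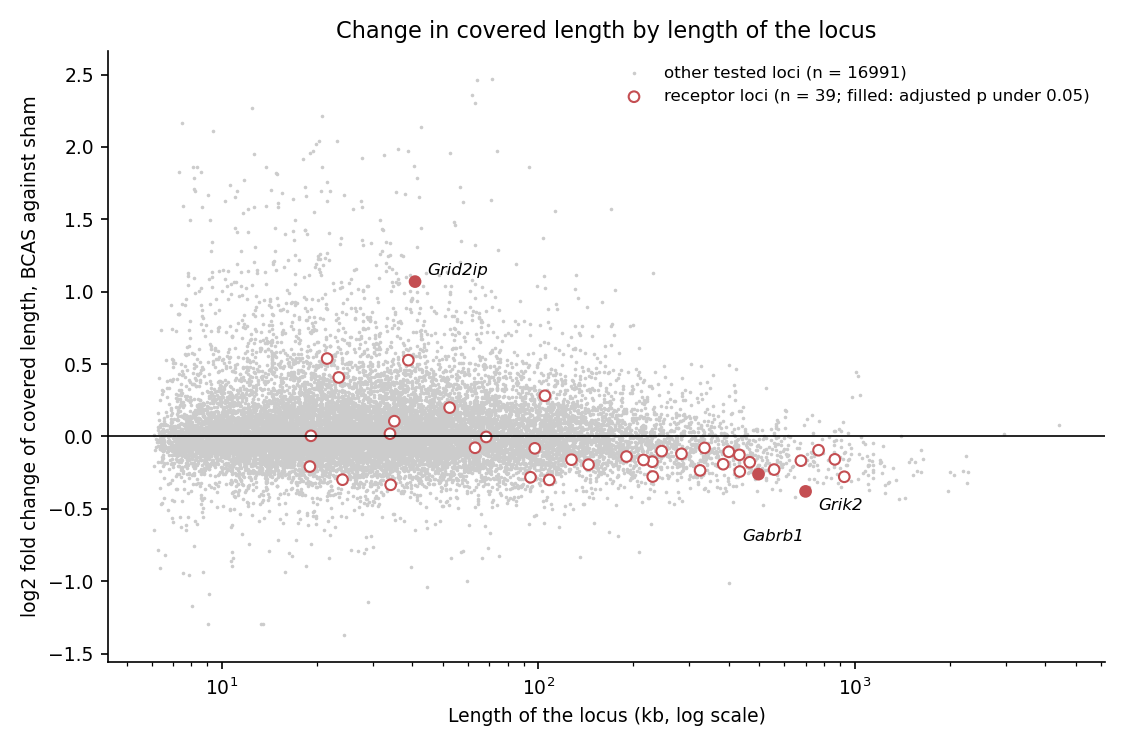
log2 fold change of covered length (vertical axis) against the length of the locus (horizontal axis, kb, log scale) for 39 of the 44 receptor loci (red; filled where adjusted p was under 0.05) and all other tested loci (grey). The 11 receptor loci of at least 400 kb drawn here all lie below 0, and grey loci of that length also lie mostly below it.

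The Grik2 locus, which encodes the kainate receptor subunit GluK2, showed the largest decrease of the family. The gene lies on chromosome 10 from 49094833 to 49788766 (GRCm38, minus strand). Its covered length was 8218, 8949, 10297 and 9442 bp in sham 1 to 4 and 8003, 6773, 6269 and 7153 bp in BCAS 1 to 4. The groups did not overlap, although BCAS 1 came close to sham 1. The log2 fold change was -0.38 (SE 0.09, limma, adjusted p = 0.0265), with means of 9226 ± 873 and 7050 ± 732 bp. Of its 39 merged regions, 19 had peaks in more sham than BCAS libraries and 3 in more BCAS libraries. The libraries fall into a class of higher (sham 1 to 3 and BCAS 1) and one of lower read GC content (sham 4 and BCAS 2 to 4). Within these classes Grik2 was lower in BCAS, with log2 differences of -0.18 and -0.48 that carry no test. The call was lost without sham 3 (adjusted p = 0.0886) or without BCAS 2, 3 or 4 (adjusted p = 0.0697, 0.0897 and 0.0517), with log2 fold changes of -0.33 to -0.39.

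Gabrb1, which encodes the beta1 subunit of GABA-A receptors, fell as well. It lies on chromosome 5 from 71658113 to 72149037 (plus strand). It covered 15300, 15274, 15573 and 15219 bp in the 4 sham libraries, 1 to 4, and 12565, 13232, 12075 and 13256 bp in BCAS 1 to 4 (log2 fold change -0.26, SE 0.06, limma, adjusted p = 0.0220). Here the groups were well apart, and the sham libraries differed little from each other (SD 158 bp). Of its 46 merged regions, 16 had peaks in more sham than BCAS libraries and 3 in more BCAS libraries. The log2 differences within the higher and the lower read GC class were -0.29 and -0.24. Gabrb1 did not pass without sham 2 or 3 (both adjusted p = 0.0566) or without BCAS 1 or 3 (0.0582 and 0.0684), with log2 fold changes of -0.23 to -0.26. With lists of equal length it stood at -0.16 (adjusted p = 0.151).

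**Figure D3:**
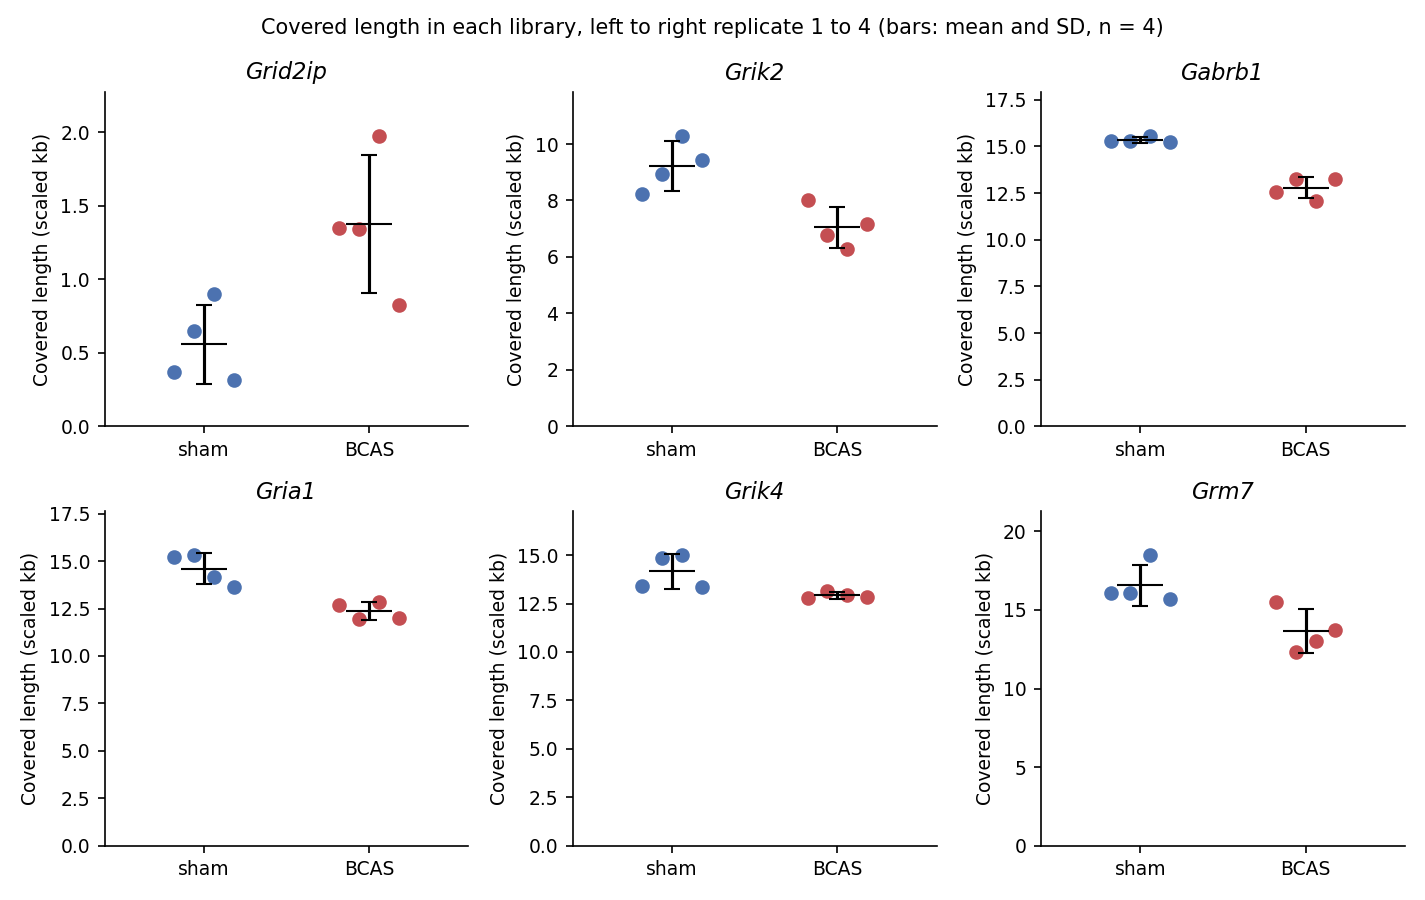
Covered length (vertical axis, scaled kb, from 0) in each of the 4 sham and 4 BCAS libraries at Grid2ip, Grik2, Gabrb1, Gria1, Grik4 and Grm7, with bars for mean and SD. The groups are apart at all but Grid2ip, where BCAS 4 (828 bp) lies below sham 3 (900 bp).

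At Grik2 and Gabrb1 the starts of the genes were open in both groups, and the regions called in more sham libraries lay in the introns, except for 1 in a flank of Gabrb1. The Grik2 start had a peak of 747 to 898 bp in the sham and 811 to 942 bp in the BCAS libraries. The promoter sequences of Grik2 and Gabrb1 from RefSeq (GRCm38.p6), 250 bases before to 50 after an annotated start, are shown because peaks of all 8 libraries met there. They are printed 5′ to 3′ on the strand of the gene, with bases covered by a peak in all 8 libraries in capitals. The Grik2 window is chr10:49788705-49789004 (minus strand), and all 300 bases were covered. The Gabrb1 window is chr5:71657671-71657970 (plus strand), with 147 bases covered.
Grik2 promoter: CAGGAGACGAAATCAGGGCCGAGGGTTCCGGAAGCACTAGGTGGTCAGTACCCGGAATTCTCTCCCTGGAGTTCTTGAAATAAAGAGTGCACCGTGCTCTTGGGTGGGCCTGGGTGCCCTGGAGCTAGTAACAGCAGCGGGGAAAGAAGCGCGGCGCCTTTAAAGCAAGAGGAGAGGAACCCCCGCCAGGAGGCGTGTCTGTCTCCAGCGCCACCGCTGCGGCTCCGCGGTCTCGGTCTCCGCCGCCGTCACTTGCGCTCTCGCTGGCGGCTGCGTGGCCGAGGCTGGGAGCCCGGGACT
Gabrb1 promoter: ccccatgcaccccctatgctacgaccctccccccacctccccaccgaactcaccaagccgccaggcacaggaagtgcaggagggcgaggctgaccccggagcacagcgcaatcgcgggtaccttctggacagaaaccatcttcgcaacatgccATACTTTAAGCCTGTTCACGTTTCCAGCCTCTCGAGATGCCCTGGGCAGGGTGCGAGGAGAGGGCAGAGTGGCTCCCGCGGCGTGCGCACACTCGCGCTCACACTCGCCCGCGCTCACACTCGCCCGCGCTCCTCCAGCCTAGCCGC

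Both windows were rich in CpG dinucleotides, with 26 in Grik2 and 25 in Gabrb1, where the median promoter held 7. The Gabrb1 window is shared ground, since Gabra4, the alpha4 subunit gene, starts head to head with it. The 2 gene bodies overlap by 196 bp, and the region over both starts was open in all 8 libraries. The log2 fold change of Gabra4 was -0.28 (SE 0.13, limma, adjusted p = 0.293).

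**Figure D4:**
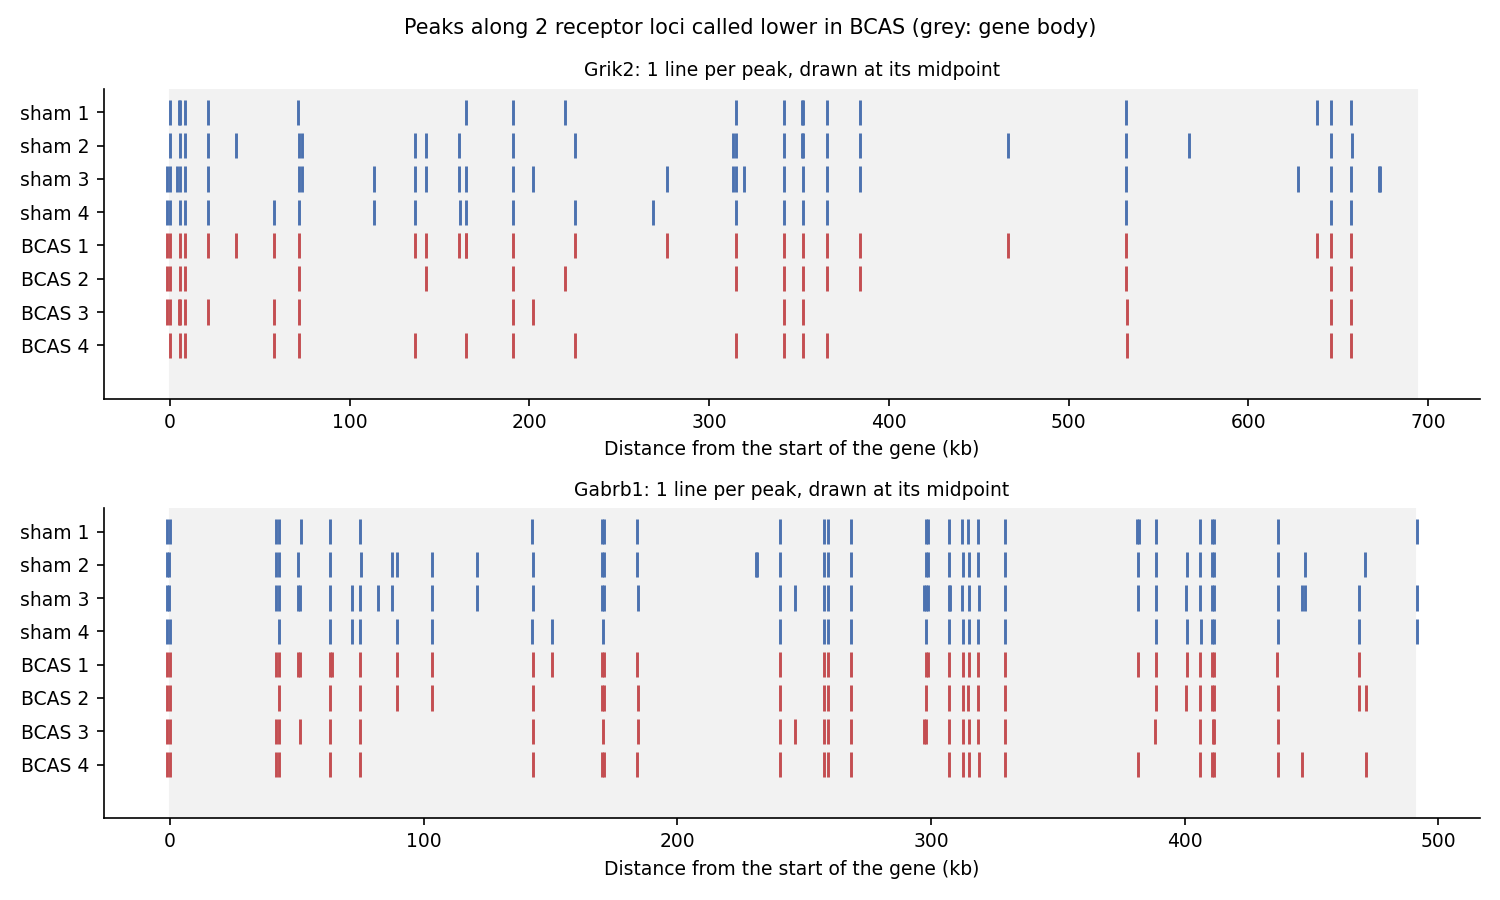
Peaks of each library (rows, sham in blue and BCAS in red) along Grik2 and Gabrb1, drawn as lines at their midpoints against distance from the start of the gene (horizontal axis, kb; grey, gene body). Many lines recur in all 8 rows, and other lines are absent from some rows of either group along the gene bodies. The peaks are drawn as called, without scaling between libraries.

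Grid2ip was the single locus of the family that rose. The gene lies on chromosome 5 from 143357338 to 143392152 (plus strand). Its covered length was 370, 647, 900 and 319 bp in sham 1 to 4 and 1350, 1343, 1978 and 828 bp in BCAS 1 to 4. The groups overlapped by 1 library, BCAS 4. The log2 fold change was 1.07 (SE 0.24, limma, adjusted p = 0.0166), with means of 559 ± 269 and 1375 ± 471 bp, a ratio of 2.46. These lengths amount to 1 to 4 peaks in a library. The call was lost without BCAS 1 (adjusted p = 0.0684) or BCAS 3 (0.0672), and the log2 differences within the higher and lower read GC class were 0.94 and 1.54.

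Much of this difference lay at an internal start of Grid2ip, where peaks were longer in BCAS. In the promoter windows, 1 kb on each side of every transcript start in the basic set of GENCODE, 0, 235, 389 and 319 bp were covered in sham 1 to 4 and 776, 676, 1049 and 530 bp in BCAS 1 to 4. Here every BCAS library exceeded every sham library. The log2 fold change of the windows was 1.22 (SE 0.25, limma, adjusted p = 0.0114). Without the promoter windows, an alternative chosen after seeing the data, the rest of the locus did not pass (0.73, adjusted p = 0.380). The RefSeq promoter at this start is chr5:143363663-143363962 (plus strand), shown because the longer BCAS peaks met it, with the 225 bases covered in all 4 BCAS libraries in capitals.
Grid2ip promoter: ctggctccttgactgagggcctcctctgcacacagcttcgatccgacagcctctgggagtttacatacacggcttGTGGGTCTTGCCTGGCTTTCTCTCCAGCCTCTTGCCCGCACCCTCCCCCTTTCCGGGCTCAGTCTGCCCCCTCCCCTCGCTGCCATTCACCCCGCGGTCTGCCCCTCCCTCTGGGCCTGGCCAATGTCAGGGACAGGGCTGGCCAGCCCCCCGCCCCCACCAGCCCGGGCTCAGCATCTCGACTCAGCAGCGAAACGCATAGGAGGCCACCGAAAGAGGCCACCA

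The peak that met this window was 244 bp long in sham 2 and 238 bp in sham 3, and none met it in sham 1 or sham 4. In BCAS 1 to 4 it was 973, 296, 1008 and 491 bp long. Its 66% G and C and 14 CpG dinucleotides are above the median of all RefSeq promoters (52.7% and 7).

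Across the promoter windows of the whole family none was called lower, but only 1 of all 14223 tested promoters was, so that this count tells little. Of 41 genes with enough promoter coverage, 1 rose, Grid2ip and no receptor subunit, against 1.05% of all 14223 promoters tested, and 0 fell, against 0.00703%. At an unadjusted p under 0.05 the counts were 1 and 0, against 5.15% and 1.51% of all tested promoters. The median log2 fold change was 0.03, against -0.02 over all tested promoters, and 23 were positive and 18 negative. This sign was not stable, since the median was -0.04 (25 negative) with the read GC class as covariate, -0.03 without sham 3, -0.04 without BCAS 4 and -0.004 without BCAS 3. The promoter values were -0.02 for Grik2 and -0.11 for Gabrb1 (adjusted p = 1 for both), although the window of Gabrb1 lies at an internal start, the single one of its basic set, and not at the start shared with Gabra4. The call at the Grid2ip promoter did not hold without BCAS 1 (log2 fold change 1.18, adjusted p = 0.143), and without BCAS 2 a further receptor promoter passed. With the promoter windows taken out of the loci, 34 of 40 tested receptor loci were negative with a median of -0.19, against a median of 0.005 over all 13362.

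**Figure D5:**
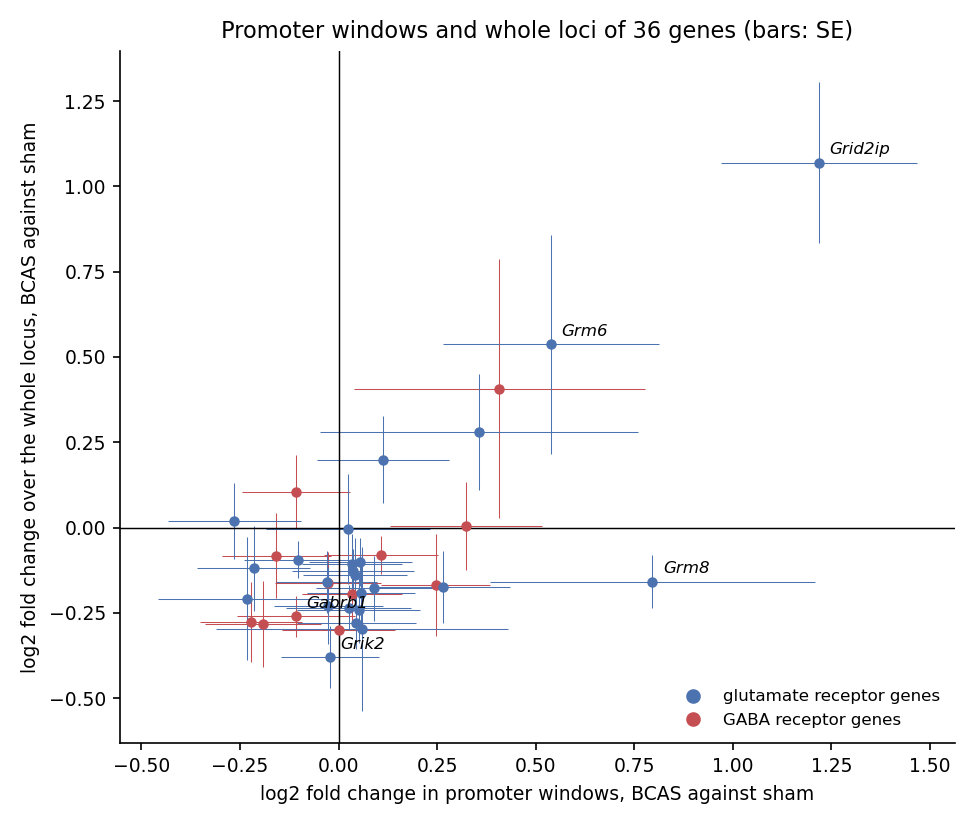
log2 fold change over the whole locus (vertical axis) against that in the promoter windows (horizontal axis), BCAS against sham, for 36 glutamate (blue) and GABA (red) receptor genes, with bars for the SE. Most points lie below 0 on the vertical and around 0 on the horizontal axis, and Grid2ip lies apart at 1.22 and 1.07.

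Promoters of the receptors were mostly open to begin with. A peak lay within 1 kb of an annotated start in all 8 libraries at 35 of the 48 genes, while 61.9% of all protein-coding genes met this. The exceptions included genes known mainly from outside the cortex. Gabra6, a subunit of cerebellar granule cells, Gabrp, a subunit best known from peripheral tissues, and the rho subunits Gabrr1 and Gabrr3, known from the retina, had no promoter peak in any library. RefSeq promoter sequences were matched for 33 of the 48 genes (41 entries) and were searched on both strands for 3 factors with known sites at neuronal genes. The left part of the RE1 element (TTCAGCACC), bound by the repressor REST, was found in Grm2 alone, and in 0.371% of all promoters. The cAMP response element (TGACGTCA) was found in 0 of the 41 entries and in 1.79% of all promoters. The NRF1 site (CGCATGCGC) was found in Gabrb1, at the start that is not printed above, and in 1.75% of all promoters.

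The loci differed widely in how much of their DNA was open. The highest shares were found at short genes, Gabrd with 9.22%, Gabbr1 with 8.41% and Grin1 with 7.13% of the locus as a mean over the 8 libraries. The lowest were at Gabra6 (0.236%), Gabre (0.425%) and Gabrr1 (0.439%), none of them a main subunit of cortical receptors. The median over the 48 loci was 2.29%, against 2.83% over tested loci of at least 100 kb and 4.63% over all tested loci. Gabra6, Gabre, Gabrr1 and Grin3b fell short of the minimum of 200 bp and were not tested. Gabra6 stood at 0 bp in the 4 sham libraries and at 182 and 208 bp in BCAS 1 and BCAS 3. Gabrr1 was listed at 336 bp in sham 3 and at 231, 374 and 360 bp in BCAS 1 to 3, and at 0 bp in the other 4 libraries. Gabre, which encodes the epsilon subunit, had peaks in 4 libraries, 2 of each group, with 178 to 249 bp. Grin3b, an NMDA receptor subunit of motor neurons, also had peaks in 2 libraries of each group, with 183 to 304 bp.

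All 4 AMPA receptor genes had negative values, with a median log2 fold change of -0.18, and none passed the test. Gria1, which encodes GluA1, was nearest, at -0.23 (SE 0.06, limma, adjusted p = 0.0553). It was covered over 15198, 15328, 14184 and 13631 bp in sham 1 to 4 and over 12670, 11944, 12843 and 11978 bp in BCAS 1 to 4. The groups did not overlap at this gene. Gria1 passed when sham 4 was left out (adjusted p = 0.0339) or the gene body was taken without its flanks (0.0395). Gria2, whose GluA2 subunit keeps calcium out of the channel, stood at -0.16 (SE 0.09), with 5340 ± 548 bp in sham and 4742 ± 175 bp in BCAS.

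Among the NMDA receptor genes 6 were tested, 4 with negative and 2 with positive values, and none passed. Grin1, the subunit that every NMDA receptor contains, stood at 0.02 (SE 0.11), with 2405 ± 201 and 2445 ± 276 bp, and turned negative when read GC class was a covariate. The long genes of the GluN2A and GluN2B subunits stood lower, Grin2a at -0.24 (SE 0.10, limma, adjusted p = 0.208) and Grin2b at -0.18 (SE 0.09). Grin2a held 17533 ± 2410 bp in sham and 14765 ± 1769 bp in BCAS, and it passed without sham 4 (adjusted p = 0.0425). Grin2b held 17750, 18963, 18249 and 17517 bp in sham 1 to 4 and 20001, 14797, 13107 and 16811 bp in BCAS 1 to 4. BCAS 1 was the highest of all 8 libraries here, and the other BCAS libraries were below all sham libraries. Grin2c, a subunit best known from the cerebellum, stood at -0.30 with a wide SE of 0.24.

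Of the 5 kainate receptor genes all had negative values, and Grik2, described above, was the one that passed. At Grik4, which encodes the GluK4 subunit, the groups did not overlap but were close, with 13349 to 15013 bp in sham and 12777 to 13160 bp in BCAS (log2 fold change -0.13, SE 0.06, limma, adjusted p = 0.373). The delta receptor gene Grid1 stood at -0.10 (SE 0.05).

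No metabotropic receptor gene passed the test. In group I, coupled to phospholipase C, Grm5 stood at -0.23 (SE 0.11, limma, adjusted p = 0.359). In group II, which lowers cAMP, Grm2 stood at -0.21 (SE 0.18) with 1274 ± 363 bp in sham and 1061 ± 245 bp in BCAS. In group III, 2 of 4 values were negative and 2 positive. Grm7, a receptor of presynaptic terminals, was the nearest to a call, at -0.28 (SE 0.08, limma, adjusted p = 0.0550). It held 16070, 16066, 18503 and 15673 bp in sham 1 to 4 and 15526, 12326, 13008 and 13748 bp in BCAS 1 to 4, with no overlap between the groups. Grm7 passed without sham 4 (adjusted p = 0.0432) or BCAS 1 (0.0330). Grm4 (0.28, SE 0.17) and Grm6 (0.54, SE 0.32), the latter known from retinal bipolar cells, did not pass. Grm6 rested on 1 region, and in sham 4 it was listed at 0 bp.

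Among the GABA-A genes, values were negative at all 5 tested alpha, 3 beta and 3 gamma subunits. The alpha genes had the lowest median of these classes, -0.28, and none of them passed. Gabra5, best known from hippocampus, stood at -0.30 (SE 0.12, limma, adjusted p = 0.197), but another protein-coding gene overlaps its locus, and all 9 of its regions are shared with that gene. Gabra3, on the X chromosome, held 1255, 1489, 1308 and 1351 bp in sham 1 to 4 and 1189, 1055, 988 and 1089 bp in BCAS 1 to 4 (log2 fold change -0.28, SE 0.12, limma, adjusted p = 0.261). The groups were apart, by less than the spread within either.

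Genes of the less common GABA-A subunits had values of both signs. Gabrd, the delta subunit of extrasynaptic receptors, stood at 0.004 (SE 0.13) with 1761 ± 242 and 1767 ± 252 bp, and turned negative with median-ratio scaling. Gabrp stood at -0.33 (SE 0.25) and Gabrq, the theta subunit, at 0.41 (SE 0.38), where 2 sham libraries were listed at 0 bp. Gabrr2, a rho subunit, held 354, 896, 855 and 961 bp in sham 1 to 4 and 1216, 918, 1176 and 1272 bp in BCAS 1 to 4 (log2 fold change 0.53, SE 0.20, limma, adjusted p = 0.184). Sham 1 was lowest, and BCAS 2 overlapped the sham libraries. Gabrr2 passed with the gene body alone (0.77, adjusted p = 0.0367), with 10 kb on each side (0.63, adjusted p = 0.0490) or without promoter windows (0.78, adjusted p = 0.0460). Without sham 1 its value was 0.28 (adjusted p = 0.409). The GABA-B genes did not pass, with Gabbr2 at -0.08 (SE 0.06; 22664 ± 878 and 21452 ± 1153 bp) and Gabbr1 at 0.11 (SE 0.11; 2841 ± 295 and 3067 ± 253 bp).

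Single open sites of the receptor genes were rarely gained or lost outright. Peaks of all libraries that overlapped by 1 bp or more were merged, which gave 1198 regions at the receptor loci, 387 of them (32.3%) open in all 8 libraries and 245 in a single library. None was open in all 4 BCAS and no sham library, where 1.59% of the regions at all protein-coding loci were. A count of 0 would allow a share of up to 0.250% by counting error if regions were independent, which regions of the same libraries are not. One was open in all 4 sham and no BCAS library (0.0835%), against 0.0913% at all protein-coding loci. At loci of at least 400 kb, 0.631% of regions were BCAS-only. Regions called in more sham than BCAS libraries numbered 390 and those called in more BCAS libraries 267, while 541 were equal, whereas over all protein-coding loci the counts were 27346 and 37554. At loci of at least 400 kb the direction was that of the receptor loci, with 6783 regions called in more sham and 5956 in more BCAS libraries. Introns held 1084 of the 1198 regions at the receptor loci, 371 called in more sham and 237 in more BCAS libraries. In exons the counts were 4 and 11 of 23 regions, and in flanks 7 and 7 of 23. At promoters 8 regions were called in more sham and 12 in more BCAS libraries, and 41 of 68 (60.3%) were open in all 8. These counts were not scaled to the number of peaks, and neighboring regions are not replicates.

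The counts of gained and lost sites depended on single libraries, since each needs all 4 of a group. Leaving out sham 3 gave 3 BCAS-only and 2 sham-only regions, and leaving out BCAS 1 gave 0 and 9. With at least 3 of 4 libraries of a group and none of the other, 6 regions were open in BCAS, among them those in Gabrb2, Gabrr2, Gria1, Grid1 and Grin2a. Another 7 were open in sham, among them those in Gabrb1, Gabrb2, Gabrp, Gria1 and Grm7, so that Gabrb2 and Gria1 held both kinds. These are 0.501% and 0.584% of the 1198 regions, against 3.29% and 0.594% at all protein-coding loci. At loci of at least 400 kb the shares were 1.63% and 0.701%.

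Genes that act with the receptors were taken as lists for comparison. Of 33 genes of auxiliary subunits and scaffolds, all tested, 26 had negative values (median -0.09). Of these 33, 1 fell, against 0.376% of all tested loci. It was Dlg2, which encodes the synaptic scaffold PSD-93 (log2 fold change -0.38, SE 0.08, limma, adjusted p = 0.0123). Its locus of 1979 kb belongs to the long loci described above. Of 14 genes of transmitter synthesis and transport 13 were tested, 7 with negative and 6 with positive values (median -0.12), and none passed. Slc32a1, the vesicular transporter of GABA, was lowest at -0.38 (SE 0.16, adjusted p = 0.237), and Slc1a3, the glial glutamate transporter, was highest at 0.23 (SE 0.11, adjusted p = 0.353).

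The summed covered lengths of microglial and of endothelial markers were apart between the groups. All 8 microglial markers had positive values. Itgam and Trem2 rose, where 3.16% of all tested loci rose. Itgam was near the floor in sham, with 54.8 ± 110 bp, against 1092 ± 394 bp in BCAS. The summed covered length of the 8 was 17306 to 22006 bp in sham and 22383 to 25676 bp in BCAS. That of 4 endothelial markers was 8248 to 10403 bp in sham and 11885 to 12388 bp in BCAS. Of these, Flt1 (0.63) and Pecam1 (0.32) had positive and Cldn5 (-0.12) and Cdh5 (-0.10) negative log2 fold changes, and none was called. For 6 markers of excitatory neurons it was 15945 to 17688 bp in sham and 14535 to 16603 bp in BCAS, and for 7 of inhibitory neurons 4249 to 5352 and 3493 to 5378 bp, again with none called and with Neurod2, Sst and Vip below the length minimum. For 6 astrocyte markers it was 17573 to 20712 bp in sham and 18871 to 22399 bp in BCAS. None of the markers of astrocytes, oligodendrocytes, their precursors or mural cells was called. The part of cell composition in the receptor values was not tested.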

How the data were processed

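Open chromatin was measured by ATAC-seq in cortex of 4 sham and 4 BCAS mice. The submitters' processing notes name FastQC, Trim Galore, Bowtie2 2.3.4.3 with mm10, SAMtools 1.9 and MACS2, which the authors ran on every library separately. How MACS2 was set and whether reads were shifted for the Tn5 cut is not given in the sources used here. Beside its position, a deposited peak carries a score, a fold enrichment (ratio) and values of -log10 p and -log10 q that the authors took from MACS2. They hold within 1 library and served here for ranks and thresholds alone (lowest -log10 q 1.31). The lists hold no read counts, so that precision rests on the number of libraries.

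Peaks on 21 chromosomes were used (861 others left out). Genes came from GENCODE M21 (basic) and sequence from GRCm38. The length covered in each locus was divided by the library's total relative to the mean total, increased by 200 bp and log2 transformed, and limma 3.58.1 (R 4.3.3, variance trend) was run on loci whose mean reached 200 bp. Python 3.11.15 with pandas 2.3.3, numpy 2.4.6 and matplotlib 3.10.9 did the rest. Regions were assigned to promoters (1 kb on each side of a start), exons, introns or flanks by overlap or midpoint. The procedure was tested on simulated data.

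The genes, lists, tests and alternatives were chosen with earlier results of these data known. Named genes were those called, the 5 highest and 5 lowest fold changes, those with groups apart, the 3 highest and 3 lowest covered shares, those not tested and 16 main subunits, 32 in all, and some of these are counted but not reported here. Alternatives were a -log10 q of 5, lists of equal length, other scalings, no minimum length, 50 or 1000 bp as pseudocount, other flanks and promoter windows, the part without other genes, number of peaks or read GC class as covariate, a replicate block, leaving out each library and other rules for regions. The loci without promoter windows and the counts by length were chosen after seeing the data.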

Additional observations from a re-analysis of the deposited data

Results flagged for a closer look

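In each group of 4 libraries the highest and lowest value of each locus was set against the other 3, over 78 groups, and 6 stood far from the rest of their group by Dixon's criterion, where chance gives about 1 in 20. BCAS 4 was low at Gabbr2 (19729 bp, others 21899 to 22145 bp) and high at Grm3 (13039 bp, others 11312 to 11463 bp). BCAS 3 was low at Grik1 (5822 bp, others 6421 to 6473 bp). BCAS 2 was high at Gabra2 (5664 bp, others 4911 to 4972 bp). Among sham libraries, sham 4 was listed at 0 bp at Grm6 (others 427 to 455 bp), and sham 3 was high at Grm7 (18503 bp, others 15673 to 16070 bp).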

How the results depend on the processing

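The number of calls among the receptor loci moved with most choices. The count of receptor loci called higher was 1, and it was 0 with a -log10 q of at least 5, lists of equal length, no scaling, median-ratio scaling, the number of peaks as covariate or the read GC class as covariate, and 2 with the gene body only or 10 kb on each side. The count called lower was 3, and it was 0 with no scaling, median-ratio scaling or the read GC class as covariate and 6 with the replicate block. Leaving out each library gave 0 to 1 higher and 0 to 6 lower. The median log2 fold change of -0.16 moved to -0.075 with no scaling and -0.10 with the read GC class, and stayed between -0.19 and -0.12 without single libraries. The covered share of the loci, lower by -0.26 points in BCAS, differed by -0.12 points with no scaling. Promoters called higher (1) became 0 with a -log10 q of at least 5, lists of equal length, no scaling, median-ratio scaling, a pseudocount of 50 bp, the number of peaks or the read GC class as covariate, and were 0 to 2 without single libraries, and promoters called lower (0) became 1 with lists of equal length. BCAS-only regions (0) became 6 with at least 3 of 4 libraries, 1 with summit windows, 2 with a -log10 q of at least 5 and 2 with lists of equal length, and were 0 to 4 without single libraries. Sham-only regions (1) became 7, 0, 1 and 5 under the same rules, and were 1 to 9 without single libraries.

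Single loci that were not called changed sign near 0. With the read GC class as covariate the log2 fold change was -0.0945 at Gabrd, -0.0058 at Grin1 and 0.0852 at Grm2. It was 0.009 at Gabbr2 with no scaling, -0.0089 at Gabrd with median-ratio scaling and -0.13 at Gabrd without promoter windows, 0.13 at Grm2 with a -log10 q of at least 5 and -0.0375 at Grm4 with lists of equal length. Without single libraries Gabrd ranged from -0.0638 to 0.0618 and Grin1 from -0.0411 to 0.0721. The sample titles give replicate numbers but no pairing of mice. Deviations of libraries of the same number had correlations of -0.16, -0.01, -0.10 and 0.14, and 1 of 4 was closest to its own number. These values cannot settle whether mice were paired. With the number as a block, Gria1, Grin2a and Grm7 were called lower beside the 3 lower without it, and over all loci 778 rose and 160 fell. The cause of these changes was not tested. The lists hold no read counts, so that what depth limits at single loci could not be measured.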
